A study of Xenopus tropicalis with 9 samples.

Results

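The genes described here encode transcription factors of the early mesoderm and endoderm: the T-box factors vegt, eomes, t and tbx6, the Mix-type homeodomain factors mix1 and mixer, and the basic helix-loop-helix factor msgn1. They were chosen by symbol from a table of 15288 genes, and 6 of the 7 symbols were found. No row of the table carries the symbol tbx6, which is not analysed here. RNA came from wild-type, outbred Xenopus tropicalis, as oocytes freed from ovarian follicles by collagenase or as whole embryos fertilised in vitro in 3 separate crosses. No group carried a mutation or received a treatment, apart from the gonadotropin given to the parents to obtain the embryos. Libraries of RNA selected on oligo(dT), here called polyA, were made at 6 stages, which were the oocyte, the early blastula at stage 6, the late blastula at stage 9, the gastrula at stage 12, the neurula at stage 16 and the larva at stage 30. Libraries of total RNA depleted of ribosomal RNA, here called RZ, were made at the 3 earliest of these. Sequencing was done on a pool of 3 biological replicates, so each stage and kind of RNA is 1 library, no spread between replicates can be given, and no difference was tested.

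In Xenopus, mesoderm and endoderm are set apart in the blastula by vegetal signals. VegT is laid down as a maternal mRNA at the vegetal side of the egg and, as a T-box activator, switches on Nodal-type ligands in the cells that inherit it. Cells that receive these ligands turn on a second tier of factors, among them eomes and t (brachyury) in the marginal zone and the Mix genes in prospective endoderm and mesoderm, while msgn1 acts a step further down in the presomitic mesoderm, where somites are prepared. In a frog the first large wave of embryonic transcription starts in the mid blastula, so RNA found before stage 9 is largely maternal.

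Levels are given in RPKM, the reads per kilobase of exon, scaled to the mapped reads of the library. The value of a gene is the mean over its exons, whatever their length, so levels of different genes can be set side by side only roughly. Mapped reads, derived from single-exon genes, ranged from 13422643 in polyA stage 9 to 44490754 in polyA stage 6, and 1 read on 1 kb of exon was worth 0.0745 and 0.0225 RPKM in those libraries. These totals are derived values and were not checked against the read numbers and aligned share that the paper reports. Between 11789 and 14269 genes were above 0 in a library. Egg coat genes summed to 595 RPKM in the polyA oocyte and 7.62 RPKM at stage 30, and a list of larval muscle and blood genes to 4.55 and 3675 RPKM, in the order that the stage labels give. The scale of the table moved between libraries: among genes with at least 1 RPKM in either library, the median log2 difference of RPKM + 1 was -1.13 from the polyA oocyte to the early blastula, 1.22 on to the late blastula, -1.10 on to the gastrula, 0.39 on to the neurula and 0.15 on to the larva. In RZ RNA the median was -0.36 from the oocyte to the early blastula and 0.43 on to the late blastula. Each change below is read against these medians. In whole embryos, fewer cells of a type and less RNA per cell cannot be told apart.

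Of the 6 genes, only vegt was present in the oocyte at 1 RPKM or more. This level was reached in at least 1 oocyte library by 9513 genes, 62.2% of the table, and the split of 1 maternal and 5 other genes was the same with a limit of 0.5 or 2 RPKM. The other 5 genes had their highest polyA level at stage 12. As deposited, 4.49% of the 12237 genes with at least 1 RPKM in a polyA library were highest at this stage, a share that was not recounted after scaling between libraries. The 5 genes differed from each other in how far they had started by stage 9 and in how much was left at stage 16.

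**Figure D1:**
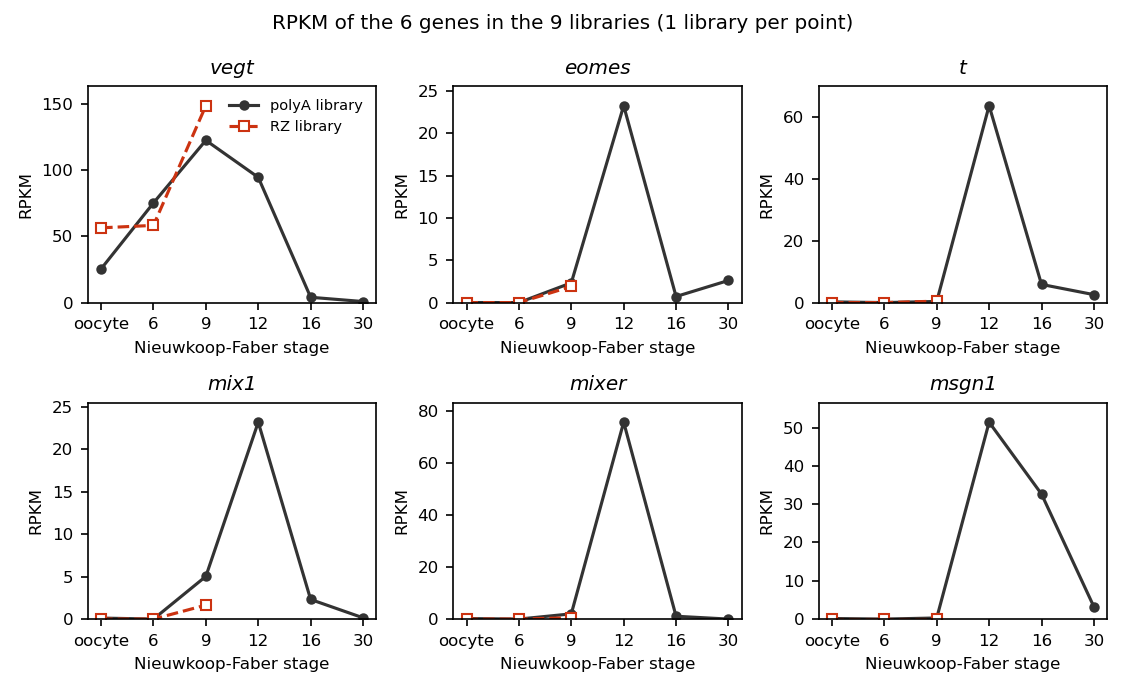
RPKM of each gene (vertical axis, its own linear scale from 0) in the 6 polyA libraries (filled circles) and the 3 RZ libraries (open squares) by Nieuwkoop-Faber stage, with 1 library per point. vegt is present in every library and falls to 4.0 RPKM by stage 16, while eomes, t, mix1, mixer and msgn1 stand highest at stage 12.

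vegt, the only member at 1 RPKM or more in the oocyte, lies on scaffold 1 from 55047162 to 55058671 on the plus strand of the JGI 7.1 assembly. In polyA RNA it measured 25.4 RPKM in the oocyte, 75.1 in the early blastula, 122 in the late blastula, 94.4 in the gastrula, 4.0 in the neurula and 0.788 in the larva. In RZ RNA it measured 56.4 RPKM in the oocyte, 58.2 at stage 6 and 148 at stage 9. As deposited, the RZ level of the early blastula was 1.03 times that of the oocyte, while the polyA level was 2.96-fold higher at stage 6 than in the oocyte. Scaled to the same median, the RZ levels of the oocyte and stage 6 were 52.4 and 73.3 RPKM. Scaled to the same summed RPKM, they were 69.3 and 87.2. Ranked within its library, vegt stood above 81.7% of all genes of the table in the polyA oocyte, 98.2% at stage 6 and 97.9% at stage 12, but above 55.2% at stage 16 and 25.9% at stage 30.

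From polyA oocyte to stage 6 the log2 difference of vegt was 1.53, above that of 98.3% of the genes with at least 1 RPKM in either library, at a step where the median gene was lower. This is under the 4-fold difference of RPKM + 1 used throughout to call a gene higher or lower. vegt was the only member past the filter at this step, so the other 5 could not be called, and 0 members were called higher or lower. Of all genes past the filter, 0.677% were called higher and 21.3% lower. When each library was scaled to the same median, or to the same summed RPKM, the vegt difference became 2.72 or 2.81, past 4-fold, and the background became 4.92% higher and 4.38% lower, or 5.57% and 3.98%.

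The later course of vegt in the blastula and gastrula depended on this scale. As deposited, its log2 difference was 0.70 between polyA stages 6 and 9 and -0.37 between stages 9 and 12, but -0.67 and 0.99 after scaling to the same median, and -0.49 and 0.22 after scaling to the same sum. Its highest polyA stage was therefore stage 9 as deposited, stage 12 with the median scaling and stage 6 with the sum scaling, and a single peak cannot be assigned. In RZ RNA the level at stage 9 was 2.55-fold that of stage 6, and the log2 difference of 1.34 stayed positive, at 0.83 and 1.03, under both scalings. How much of the vegt RNA at stage 9 and later was maternal and how much was newly made was not measured. From stage 12 to stage 16 the polyA level was 23.6-fold lower, and it was a further 5.07-fold lower at stage 30.

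An mRNA with a short poly(A) tail is captured less well on oligo(dT). The authors propose that the ratio of polyA to RZ RPKM may follow relative polyadenylation. Each RPKM is relative to its own library, so the ratio is not the amount of a transcript that the selection retained. For vegt the log2 ratio was -1.15 in the oocyte, 0.37 in the early blastula and -0.28 in the late blastula. As deposited, the median maternal gene took the opposite course, at 0.29 over 9503 genes in the oocyte, -0.63 over 9470 at stage 6 and 0.22 over 9486 at stage 9. Against that median, vegt stood 1.44 lower in the oocyte, where 15.3% of maternal genes had a lower ratio, 0.996 higher at stage 6, where 79.7% had a lower one, and 0.50 lower at stage 9, where 29.7% did. On log2(RPKM + 1), the signs of vegt at all 3 stages were kept under both scalings, but the course of the median gene was not. Over genes past the filter of 1 RPKM, the median difference at the 3 stages was 0.25, -0.51 and 0.21 as deposited. It became 0.08, 0.03 and -0.02 with median scaling, which draws medians together by design, and -0.45, -0.33 and -0.37 with sum scaling. On log2(RPKM + 1) vegt, the only member past the filter of 1 RPKM in the oocyte and at stage 6, passed the 4-fold limit at none of the 3 stages, at which 6.46%, 1.56% and 4.26% of the tested genes were called higher in polyA and 2.9%, 7.57% and 0.22% lower.

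**Figure D2:**
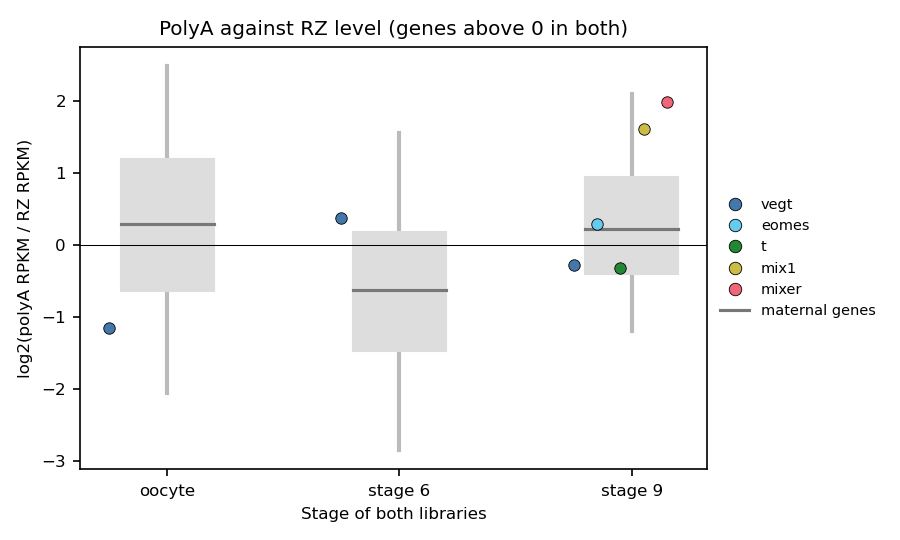
log2 ratio of polyA to RZ RPKM at the oocyte, stage 6 and stage 9 for genes above 0 in both libraries. Grey boxes hold the middle 50% of maternal genes with their median as a bar, grey lines reach from the 5th to the 95th percentile, and points are the genes of the set. vegt lies below the median bar in the oocyte, above it at stage 6 and below it at stage 9, while mix1 and mixer lie above the box at stage 9.

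The zygotic members were at or near 0 before stage 9. eomes, t, mix1, mixer and msgn1 were all listed at 0 in polyA stage 6, the most deeply sequenced library, and in the RZ oocyte and RZ stage 6. In the polyA oocyte all 5 were above 0, at 0.00546 RPKM for eomes, 0.120 for mix1, 0.151 for msgn1, 0.202 for mixer and 0.228 for t. As deposited, these traces equalled 0.0235% of the stage 12 level for eomes and between 0.267% and 0.517% for the other 4 genes, shares that median scaling multiplies by 0.433 and sum scaling by 0.613.

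The same was measured in other genes of the table. Of 31 genes with at least 20 RPKM at stage 12 and 0 in polyA stage 6, the RZ oocyte and RZ stage 6, the 5 included, all 31 were above 0 in the polyA oocyte, at a median of 0.376% of their stage 12 level and at most 0.856%. A list of 7 ovarian follicle cell genes summed to 4.27 RPKM in the polyA oocyte, with 6 of 7 above 0 and amh at 0, to 0.575 RPKM in the RZ oocyte, with amh and foxl2 at 0, and to 0.0395 RPKM in polyA stage 6. The same list summed to 1.09 RPKM in polyA stage 12, 2.22 at stage 16 and 5.91 at stage 30, where all 7 were above 0. A list of larval muscle and blood genes also stood higher in the polyA oocyte than in polyA stage 6, at 4.55 and 0.822 RPKM. The part of follicle cells, or of any other source, in the oocyte traces was not tested. For msgn1, whose values are whole reads of a single exon in 9 of 9 libraries, the trace was 4 reads, with a 95% exact Poisson interval of 0.0412 to 0.387 RPKM, and the same interval for the 0 reads in polyA stage 6 ran to 0.0808 RPKM. Such intervals cover counting error only.

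Among the T-box genes, eomes had begun by the late blastula. Eomes, which acts with Nodal signals in the dorsal and marginal mesoderm, lies on scaffold 6 from 97450492 to 97457071 on the plus strand. Its polyA level was 0.00546 RPKM in the oocyte, 0 in the early blastula, 2.33 in the late blastula, 23.2 in the gastrula, 0.716 in the neurula and 2.61 in the larva. Its RZ level was 0 in the oocyte and the early blastula and 1.90 at stage 9. Both kinds of RNA showed it at stage 9 at about 2 RPKM, with a log2 ratio of 0.29 beside a maternal median of 0.22.

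eomes was 9.98-fold higher at stage 12 than at stage 9 and then 32.5-fold lower at stage 16. It was the one member with a higher level at stage 30 than at stage 16, by 3.65-fold, a log2 difference of RPKM + 1 of 1.07 that was not past 4-fold. Eomes is also known as a factor of the developing forebrain. The libraries hold whole embryos, and the tissue that carried the stage 30 RNA was not measured.

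The gene t encodes brachyury, the T-box factor of the whole marginal zone and later of the notochord and tailbud, and RefSeq names it tbxt. It lies on scaffold 5 from 72053579 to 72062232 on the plus strand. Its polyA level was 0.228 RPKM in the oocyte, 0 in the early blastula, 0.366 in the late blastula, 63.7 in the gastrula, 5.88 in the neurula and 2.57 in the larva. Its RZ level was 0 in the oocyte and the early blastula and 0.457 at stage 9. In polyA RNA, stage 9 thus placed it far below its gastrula level, at 0.574% of stage 12 as deposited, 0.222% with median scaling and 0.381% with sum scaling. For the RZ level there is no RZ gastrula library to set it against.

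After the gastrula t was 10.8-fold lower at stage 16 and another 2.29-fold lower at stage 30. A second brachyury copy, listed as t2 and named tbxt.2 by RefSeq, starts 29.6 kb beyond the end of t on the same strand of scaffold 5, and it was looked at after its values were seen. The polyA level of t2 was 0.0893 RPKM in the oocyte, 0.0194 in the early blastula, 0.104 in the late blastula, 11.7 in the gastrula, 12.1 in the neurula and 5.49 in the larva. While t dropped to 9.22% of its stage 12 level by stage 16, t2 was at 1.04 times its own as deposited, but at 90.1% of it with median scaling and 84.1% with sum scaling. t2 had the higher RPKM of the pair at stages 16 and 30. Reads that matched both copies equally had been left out by the authors, so the levels of the pair, like those of other close copies, are uncertain where their exons are identical.

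The Mix-type factors are homeodomain proteins induced by VegT and Nodal signals, which promote endoderm and restrain mesodermal genes. mix1 lies on scaffold 5 from 118170609 to 118173173 on the minus strand, and mixer from 118182838 to 118186400 on the same strand, with 9.66 kb between them. Also in this cluster were bix1.1 and bix1.2, and the 4 genes spanned 111 kb. Both bix genes were listed at low levels, at most 0.222 RPKM for bix1.1 and 0.0761 for bix1.2, each at stage 12. Reads with more than a single match had been left out by the authors, and how many such reads fell on the bix genes was not measured. Whether these values show how strongly the bix genes were expressed therefore cannot be told.

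In polyA RNA, mix1 had the largest early share of the zygotic members. Its polyA level was 0.120 RPKM in the oocyte, 0 in the early blastula, 5.03 in the late blastula, 23.2 in the gastrula, 2.31 in the neurula and 0.151 in the larva. Its RZ level was 0 in the oocyte and the early blastula and 1.65 at stage 9. By stage 9 it had reached 21.7% of its gastrula level in polyA RNA, a larger share than in eomes (10.02%), mixer (2.66%), t or msgn1. RZ RNA did not give this order. Set against the polyA level of stage 12, a comparison across kinds of RNA, the RZ level of stage 9 was 8.18% for eomes and 7.09% for mix1. In polyA RNA mix1 was 4.61-fold higher at stage 12 than at stage 9, 10.03-fold lower again at stage 16 and 15.3-fold lower than that at stage 30.

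mixer had the highest level of the zygotic members and the sharpest peak. In polyA RNA it measured 0.202 RPKM in the oocyte, 0 in the early blastula, 2.02 in the late blastula, 75.8 in the gastrula, 1.09 in the neurula and 0 in the larva. In RZ RNA it measured 0 in the oocyte and the early blastula and 0.512 at stage 9. Its stage 12 level, above that of 97.2% of all genes, was 37.6-fold that of stage 9 and 69.4-fold that of stage 16. It was the only member listed at 0 at stage 30.

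At stage 9 both Mix genes had higher levels in polyA than in RZ RNA. The log2 ratio was 1.98 for mixer and 1.61 for mix1, above those of 93.9% and 89.7% of maternal genes, while those of eomes and t were 0.29 and -0.32. On the scale of RPKM + 1 the differences shrank to 0.997 for mixer and 1.19 for mix1 and stayed positive under both scalings, while that of eomes, 0.20, became 0.03 with median scaling of both kinds of library and -0.24 with sum scaling. None of the 4 genes past the filter, vegt, eomes, mix1 and mixer, was called. Of all tested genes, 4.26% were called higher in polyA and 0.22% lower, so this count is not a result about the 4 genes. The list of larval muscle and blood genes summed to 26.8 RPKM in polyA stage 9 against 1.22 RPKM in RZ stage 9 and 0.822 RPKM in polyA stage 6. Its part in the Mix ratios was not tested.

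msgn1 (mesogenin), a regulator of presomitic mesoderm, lies on scaffold 9 from 96833397 to 96834422 on the minus strand. Its polyA level was 0.151 RPKM in the oocyte, 0 in the early blastula, 0.290 in the late blastula, 51.4 in the gastrula, 32.6 in the neurula and 3.21 in the larva, and it was listed at 0 in all 3 RZ libraries. As reads, these were 4, 0, 4, 1320, 520 and 53 in the polyA libraries. At stage 9 its share of the gastrula level, 0.565%, was close to the 0.574% of t, and at stage 16 its share of 63.5% was the largest of the members.

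The read counts give msgn1 a counting interval that the other genes lack. Its level was 51.4 RPKM with a 95% exact Poisson interval of 48.7 to 54.3 at stage 12, 32.6 with 29.9 to 35.6 at stage 16 and 3.21 with 2.40 to 4.20 at stage 30. These intervals did not overlap. The stage 12 level was 782-fold that of stage 6 when 3 reads were put in place of the count of 0. This is not a lower bound at 95%, since the interval of that count reached 3.69 reads. Stage 12 was 177-fold stage 9, with an interval of 69.0 to 651. At stage 9 the 4 polyA reads gave an interval of 0.0791 to 0.744 RPKM, and the 0 reads in RZ RNA an interval up to 0.151 RPKM. These 2 intervals overlapped, which does not settle whether the 2 kinds of RNA differed. No interval was computed for their ratio.

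Levels in polyA RNA beside 0 in RZ RNA, like that of msgn1 at stage 9, were also measured across other genes. Of 12 genes listed at 0 in all 3 RZ libraries with at least 20 RPKM at stage 12, msgn1 among them, all 12 were above 0 in polyA RNA of the oocyte, 1 in that of the early blastula and 11 in that of the late blastula, where the median was 0.791% of the stage 12 level. For msgn1 the stage 9 share lay below that median. The highest of the 12 genes reached 10.96 RPKM in polyA stage 9, so not all of these levels were traces. The source of these levels was not tested.

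From stage 6 to stage 9 in polyA RNA, 4 of the 6 genes passed the filter and 1 of these, mix1, was called higher, against 17.6% of the 9402 genes tested, and 0 were called lower, against 0.245%. The background itself became 1.24% higher and 2.62% lower with median scaling, and 2.23% and 2.10% with sum scaling, and mix1 remained called under both. Among the other genes past the filter, eomes and mixer had log2 differences of 1.73 and 1.59 and vegt 0.70, all under 4-fold. In RZ RNA, where vegt alone passed the filter at the first step and vegt, eomes and mix1 at the next, 0 of 6 genes were called, and the background was 0.0326% higher and 0.37% lower between oocyte and stage 6, and 4.1% and 0.397% between stages 6 and 9.

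The step into the gastrula held the largest rise of the set. From polyA stage 9 to stage 12, a step at which all 6 genes passed the filter, 5 of the 6 were called higher, all but vegt, against 5.54% of the 10112 genes tested, and 0 were called lower, against 23.2%. The log2 differences of RPKM + 1 were 5.57 for t, 5.34 for msgn1, 4.67 for mixer, 2.86 for eomes and 2.004 for mix1, the last just at the 4-fold limit. The difference of t was above that of 99.9% of tested genes and that of mix1 above 94.5%. Without a pseudocount the rise of t was 174-fold as deposited, 450-fold with median scaling and 263-fold with sum scaling. The common factors on every gene were 2.59 and 1.51, which took eomes from 9.98-fold to 25.8-fold and 15.0-fold, mixer from 37.6-fold to 97.1-fold and 56.6-fold, and msgn1 from 177-fold to 458-fold and 267-fold. All 5 calls stood under median and sum scaling, where the background was 11.8% higher and 4.95% lower, or 7.45% and 12.8%. With the limit at 10-fold, t, msgn1 and mixer stayed called and mix1 and eomes did not, and with a pseudocount of 2 mix1 alone was lost, at 1.84.

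The step out of the gastrula was nearly its mirror image, with vegt added. From stage 12 to stage 16, 5 of the 6 genes were called lower, all but msgn1, against 0.737% of the 10579 genes tested, and 0 were called higher, against 7.35%. The log2 differences were -5.20 for mixer, -4.25 for vegt, -3.82 for eomes, -3.23 for t, -2.87 for mix1 and -0.64 for msgn1. Only 0.00945% of tested genes had a lower value than mixer and 0.246% a lower one than mix1. From stage 16 to stage 30, msgn1 alone was called lower, by 3.00 on the log2 scale, against 2.16% of the 11541 tested genes, and 0 were called higher, against 4.25%.

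**Figure D3:**
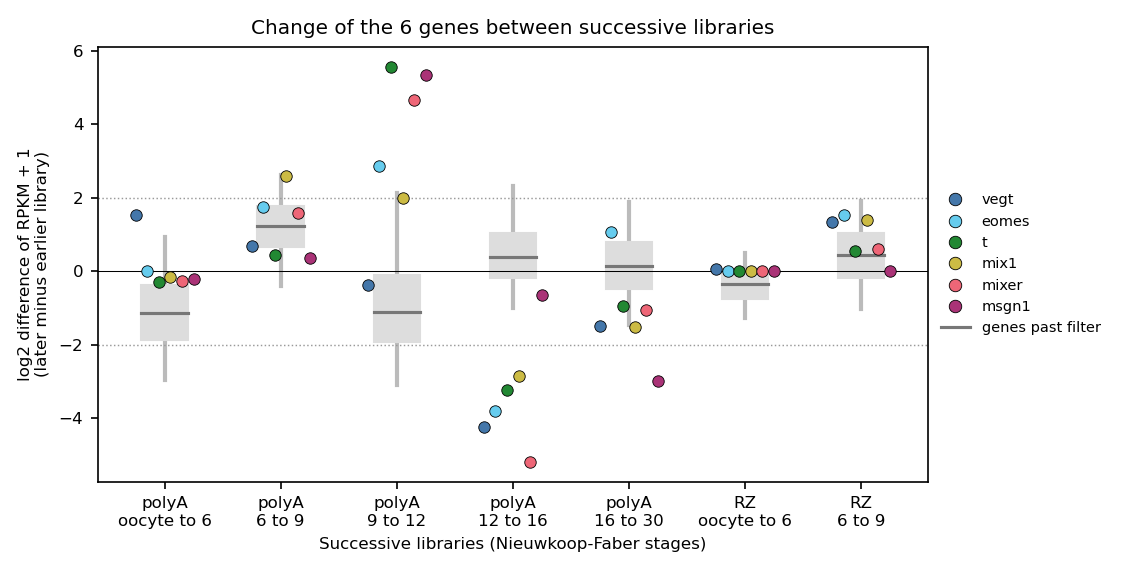
log2 difference of RPKM + 1 between successive libraries (later minus earlier) for the 6 genes (points) and for all genes with at least 1 RPKM in either library (grey: median bar, box of the middle 50%, line from the 5th to the 95th percentile). Dotted lines mark 4-fold. 5 genes lie on or above the upper dotted line from polyA stage 9 to stage 12, and 5 lie below the lower one from stage 12 to stage 16.

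A peak at the gastrula was shared with other genes, and 4 of the 5 members that peaked there had less left at stage 16 than nearly all of those genes. In all, 411 genes had their highest polyA level at stage 12 with at least 10 RPKM. Their median level at stage 16 was 60.8% of that at stage 12, against 1.44% for mixer, 3.08% for eomes, 9.22% for t, 9.97% for mix1 and 63.5% for msgn1. Of these 411 genes, 0.243% had a lower share than mixer and 2.92% a lower share than mix1, but 55.0% a lower share than msgn1. At stage 30 the shares left were 11.2% for eomes, 6.24% for msgn1, 4.03% for t, 0.649% for mix1 and 0 for mixer, against a median of 38.8%. Ahead of the peak, the 5 genes had 0.565% to 21.7% of their gastrula level at stage 9, against a median of 26.9%. Of the 411 genes, 46.2% had a lower stage 9 share than mix1 and 33.3% a lower one than eomes, so these 2 were not unusual. For mixer, t and msgn1 these values were 19.5%, 6.33% and 6.08%. Scaling multiplies the shares of all genes at a stage by 1 factor, so the order of the members is kept: the stage 9 share of mix1 was 8.39% with median scaling and 14.4% with sum scaling, and its stage 16 share 8.64% and 8.07%. The stage 30 share of eomes was 9.14% and 6.37%. The 411 genes, their medians and the ranks among them are as deposited and were not redrawn, although scaling can change which genes are highest at stage 12.

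**Figure D4:**
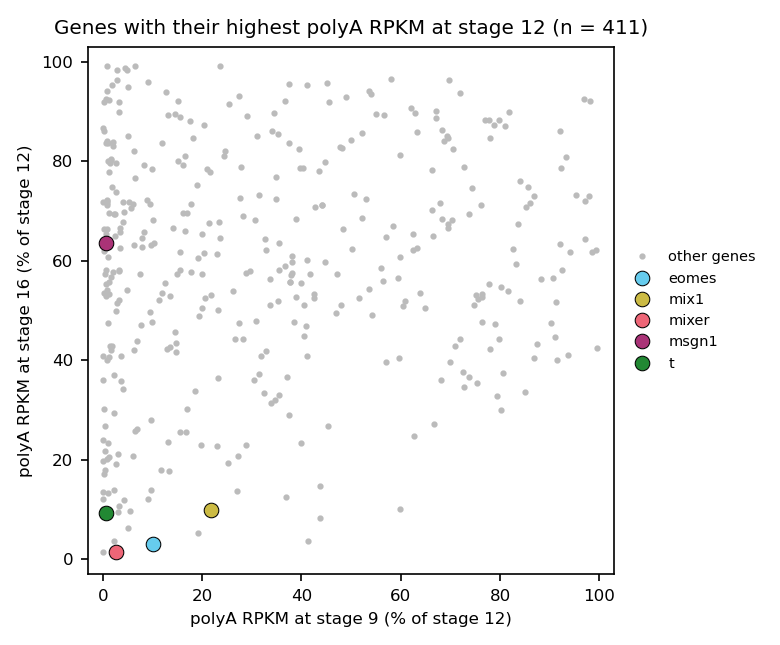
PolyA RPKM at stage 9 (horizontal axis) and at stage 16 (vertical axis), each as a percent of stage 12, for the 411 genes highest at stage 12 as deposited with at least 10 RPKM there. t, mixer, eomes and mix1 lie in the lower left corner, under 10% at stage 16, and msgn1 lies at 63.5% on the left edge.

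The other T-box genes were counted by their highest stage. Of the 14 other T-box genes listed, 12 were in the table and 8 reached 1 RPKM in a polyA library, and of these, as deposited, 0 were highest in the gastrula, 2 in the late blastula, 4 in the neurula and 2 in the larva. Among the 12237 genes of the table at that level, 4.49% were highest in the gastrula, 30.1% in the late blastula, 15.3% in the neurula and 22.2% in the larva, so a count of 0 in 8 at the gastrula is not a result about these genes. From stage 9 to stage 12, tbx2 and tbx3, repressors of the T-box family, were called higher, by 2.45 and 2.42 on the log2 scale, against 5.54% of tested genes. As deposited, mga, which carries both a T-box and a Max-binding domain, was called higher from stage 6 to stage 9. This was by 2.21 in polyA RNA, against 17.6% of tested genes, and by 2.23 in RZ RNA, against 4.1%. From stage 9 to stage 12 mga was called lower, by 2.39, against 23.2% of tested genes. Median and sum scaling raise stage 12 against stage 9 by factors of 2.59 and 1.51, and under either this fall of mga fell short of 4-fold. Its rise from stage 6 to stage 9 in polyA RNA also fell short of 4-fold under either scaling. The rise in RZ RNA fell short with median scaling but stayed past 4-fold with sum scaling. From stage 12 to stage 16 none of the 5 past the filter was called in either direction. Their levels at stage 16 were 21.6 RPKM for tbx3, 12.8 for tbx1, 9.78 for tbx2, 4.42 for tbx20 and 3.41 for mga. tbx4, tbx5, tbx18 and tbx21 stayed under 1 RPKM in all 9 libraries.

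Upstream and neighbouring pathways were counted among their genes past the filter of 1 RPKM and are set against the same background. From stage 9 to stage 12, when 5.54% of tested genes were called higher and 23.2% lower with a median log2 difference of -1.10, the 6 genes of the set had a median of 3.77. Of 15 genes for Nodal-type ligands and their transducers, from 18 in the table, 0 were called higher and 4, or 26.7%, lower, with a median of -1.29, both close to the background. Of 19 endoderm and organizer genes, 14 were called higher and 1 lower, with a median of 3.59. Of 17 paraxial mesoderm genes, 10 were called higher and 1 lower, and of 11 FGF, Wnt and Cdx genes, 6 higher and 0 lower, with medians of 2.63 and 2.12.

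The same lists were counted for the step out of the gastrula, where 7.35% of tested genes were called higher and 0.737% lower and the median was 0.39. The median of the 6 genes of the set was -3.53 at this step. Of 17 endoderm and organizer genes, 5 were called lower and 0 higher, with a median of -0.87. Of 19 paraxial mesoderm genes, 4 were called higher and 1 lower, with a median of -0.11. None of the 12 FGF, Wnt and Cdx genes or of the 13 Nodal-type genes was called in either direction, with medians of 0.06 and -0.96.

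The genes whose course was most like that of each member were found by Pearson's r of log2(RPKM + 1) over the 9 libraries, among 7907 named genes that reached 10 RPKM in some library. The points share libraries, depth and the shift in scale, and r is a description only. For t these were sp5, mmp1 and 1a11, each with an r of 0.99. For eomes they were tat at 0.95, lhx5 at 0.94 and lefty, an inhibitor of Nodal signals, at 0.93. For mix1 they were foxd4l1.1 at 0.98, ventx1.1 at 0.97 and ventx2.2 at 0.96, the last pair being homeobox genes of the ventral BMP response.

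For mixer the closest were cmtm8 at 0.97, cer1, a secreted inhibitor of Nodal, BMP and Wnt, at 0.96, and tat at 0.96. For msgn1 they were gata2, hoxb1 and trpm5, all at 0.997 or more. For vegt they were bmp7.2 at 0.94, thada at 0.93 and fbxo34 at 0.93. Of these 18 places, with tat named for both eomes and mixer, 6 were kept when only the 6 polyA libraries were used, and 12 with a pseudocount of 0.1. With the polyA libraries only, 0 of 3 were kept for vegt and 0 of 3 for mix1. With a pseudocount of 0.1, 0 of 3 were kept for mixer. For t and for msgn1, 2 of 3 were kept under either change. Among the members themselves r was 0.94 between mix1 and mixer and 0.94 between t and msgn1, while that of vegt with the other 5 lay between -0.37 and 0.29.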

How the data were processed

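The authors aligned the reads with BWA 0.6.1 to the JGI 7.1 assembly and dropped reads with more than a single match. They deposited RPKM values, each the mean over the non-redundant exons of all isoforms of a gene. These values were used as deposited and are not scaled further between libraries. The last field of the header names the 9 libraries, and values were matched to samples by title; 0 value columns belonged to other samples.

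Mapped reads were worked out for each library from RPKM multiplied by length. The value of 1 read was taken as a shared value of which the most genes held whole multiples, and 35 to 61 genes stood at 1 read. With these totals, 581 genes gave whole reads within 0.001 in all libraries and were taken as single-exon genes. Differences were taken on log2(RPKM + 1). A gene was called past 4-fold with at least 1 RPKM in the higher library, and percentages of called genes are over all genes past that filter. This fold scale understates changes of low genes. PolyA to RZ ratios carry no pseudocount. Read intervals were given for msgn1 only, since depth behind a mean over exons is unknown. With 1 pooled library per group, no test was made.

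All members in the table, the other T-box and Mix genes and the 3 genes most alike to each member were named, and other lists were given as counts. Members and lists were chosen with earlier results of these data known. RefSeq gave gene names only. Promoter motifs and sequences were not analysed here. Alternatives were pseudocounts of 0.1 and 2, folds of 2 and 10, no filter or 5 RPKM, and scaling to equal medians or equal summed RPKM. The procedure was tested on simulated data. Python 3.11.15, numpy 2.4.6, pandas 2.3.3, scipy 1.17.1 and matplotlib 3.10.9 were used.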

Additional observations from a re-analysis of the deposited data

Results flagged for a closer look

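The polyA to RZ ratio of vegt changed sign between stages: its log2 value was -1.15 in the oocyte, 0.37 at stage 6 and -0.28 at stage 9. With 1 library of each kind per stage, the difference between stages was not tested.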

How the results depend on the processing

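Of 160 counts of called members over the alternatives, 143 stayed within 1.5 times the value given, as did 426 of 480 log2 changes within 0.5, and no called change reversed. These totals overstate how stable the results are. The other fold limits and filters cannot move a log2 change, so those values were the same by construction. Counts of 0 for members near 0 RPKM in both libraries could hardly move either. Shares of all tested genes called the same way stand in brackets. With a limit of 2-fold, members called higher became 1 from polyA oocyte to stage 6 (4.49%), 3 from stage 6 to stage 9 (60.4%), 1 from stage 16 to stage 30 (18.6%), 3 from RZ stage 6 to stage 9 (25.9%) and 1 in polyA against RZ at stage 9 (19.9%), while those called lower became 4 from stage 16 to stage 30 (11.2%) and 1 in polyA against RZ in the oocyte (14.2%). With a limit of 10-fold, 0 were called higher from polyA stage 6 to stage 9 (0.713%), 3 higher from stage 9 to stage 12 (2.05%), 3 lower from stage 12 to stage 16 (0.104%) and 0 lower from stage 16 to stage 30 (0.286%). A pseudocount of 0.1 gave 3 called higher from polyA stage 6 to stage 9 (30.7%), 2 higher from RZ stage 6 to stage 9 (8.77%) and 4 lower from polyA stage 16 to stage 30 (4.54%), and a pseudocount of 2 gave 0 called higher from polyA stage 6 to stage 9 (11.7%). Scaling to equal medians (4.92%) or to equal summed RPKM (5.57%) gave 1 called higher from polyA oocyte to stage 6, namely vegt. No paired analysis was possible because each group is 1 library, and for the same reason no library could be left out. Pooling hides the spread between crosses, and depth limits values near 0, where 3 reads on 1 kb amount to 0.0674 RPKM in polyA stage 6 and 0.224 RPKM in polyA stage 9.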
